A study of Mus musculus with 6 samples.

Results

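The TIM and TOM genes encode the translocases that carry nuclear-encoded proteins into mitochondria. They were taken here as every protein-coding gene whose symbol begins with Timm or Tomm in the GENCODE M21 annotation of GRCm38, which gave 26 of the 55335 gene identifiers in the files. The rule used names alone and no measured value, but it was set with earlier results of these data known. RNA was sequenced from bEnd.3, a polyoma-transformed line derived from mouse brain endothelium, labelled wild type. In the 3 control libraries the cells received 100 µl of culture medium. In the 3 mitochondria libraries they received mitochondria from primary mouse astrocytes, suspended in the same volume. All cells were collected after 24 h. The series asks whether mitochondria passed on by astrocytes alter the blood-brain barrier, and its single comparison is mitochondria against medium. The labels do not state whether replicates were grown apart. The p-values therefore cover only the spread among these libraries, which may be technical.

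Nearly all mitochondrial proteins are made in the cytosol and must cross 1 or both mitochondrial membranes. The TOM complex of the outer membrane recognises them with its receptors and passes them through the TOMM40 channel. From there, TIM23 takes proteins with a cleavable presequence to the matrix or inner membrane, the small TIM chaperones escort hydrophobic proteins across the intermembrane space, and TIM22 inserts carrier proteins into the inner membrane.

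Depth, as implied by the value of 1 fragment in the FPKM, was about 17000000 to 21100000 fragments for control cells and about 21800000 to 27200000 for treated cells. The mitochondria libraries were therefore all deeper. Of 12 endothelial markers, 7 were under 1 FPKM in every library, including Cdh5 (at most 0.0685 FPKM), Pecam1 (at most 0.268 FPKM) and Cldn5 (at most 0.129 FPKM), while Eng and Cd34 were at 55.5 FPKM or more. The endothelial list summed to 135 to 143 FPKM in the controls and to 157 to 169 FPKM in the treated cells. Most of that rise was Cd34, at 58.0 to 63.0 against 78.9 to 82.2 FPKM (log2 change 0.41, limma adjusted p = 0.0265). The list did not move together: Flt1 (9.33 to 11.1 against 7.43 to 7.94 FPKM) and Kdr (3.65 to 4.09 against 2.70 to 3.19 FPKM) were lower without overlap. Eng and Tie1 overlapped between the groups. The label of brain endothelium thus rests on few of its defining markers here. Astrocyte markers summed to between 13.2 and 47.8 FPKM in the controls and between 26.1 and 27.8 FPKM with mitochondria, with Aqp4 at 0 and Gfap at most 0.198 FPKM. Gja1 alone made up most of these sums, at 11.7 to 46.0 FPKM in the controls and 23.5 to 25.8 FPKM with mitochondria. Of the 8 astrocyte markers, 5 were under 1 FPKM in every library. Aldh1l1 was higher without overlap, at 0.302 to 0.455 against 0.972 to 1.15 FPKM, and was too low to enter the test. Slc1a2 was higher without overlap too, but at 0.169 FPKM or less. Gja1 and S100b overlapped between the groups. The 7 fibroblast and mural markers summed to 210.04 to 231 FPKM in the controls and 155 to 165 FPKM with mitochondria. Most of that difference was Col1a1, which fell from 135 to 140 FPKM to 81.9 to 87.5 FPKM (limma adjusted p = 0.00547), while Pdgfra (17.9 to 19.3 against 22.2 to 23.3 FPKM) and Acta2 (1.55 to 1.76 against 1.96 to 2.39 FPKM) were higher without overlap and did not pass. Pdgfrb overlapped between the groups, at 52.6 to 72.0 against 47.9 to 57.2 FPKM. Col1a2, Cspg4 and Rgs5 were under 1 FPKM in every library. The 4 microglial markers summed to 224 to 272 and 181 to 207 FPKM, with Aif1, Cx3cr1 and P2ry12 under 1 FPKM in every library. Nearly all of that sum was thus 1 gene, Tmem119, which was lower without overlap and did not pass (log2 change −0.33, limma adjusted p = 0.182). The 4 neuronal markers summed to 1.78 FPKM or less. Whether these cell type markers play a part in the values below was not tested, and in bulk RNA a smaller share of a cell type and less RNA per cell cannot be told apart.

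None of the import genes passed the test after 24 h with mitochondria. Of the 26 genes, 24 were at 1 FPKM or more in all 6 libraries and entered the test. The other 2, Tomm20l and Timm8a2, were listed at 0 in every library. With limma on log2(FPKM + 1) and Benjamini-Hochberg adjustment over all 12639 genes tested, 0 of the 24 had an adjusted p under 0.05 (background 1.12% of all genes tested, with 0.467% higher and 0.649% lower), and the smallest adjusted p was 0.197. At an unadjusted p under 0.05 there were 2 of 24, Timm9 and Tomm34, or 8.33%, where all genes tested gave 13.9%.

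The intervals of the changes show how large a difference these libraries could have hidden. For 22 of the 24 genes the 95% interval (limma) lay within a 1.5-fold change of FPKM + 1 in either direction. For a low gene such as Timm9 that bound allows a larger fold change of the FPKM itself. Among all genes tested, 89.0% met that bound. Tomm5 and Tomm40l were the 2 genes with intervals wider than 1.5-fold. On the log2 scale the members ranged from −0.61 (Tomm5) to 0.15 (Tomm40l), and 23 of 24 lay within 0.25 of 0. The median absolute log2 change was 0.08, the same as the 0.08 of all genes tested.

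Small differences were more often downward than upward. The log2 change was negative in 18 of 24 import genes (75%) and in 52.0% of all genes tested. The median was −0.05 for the import genes and −0.01 for all genes. The mitochondria libraries all lay below the controls in 6 of 24 (Timm9, Tomm34, Tomm40, Timm50, Timm17a and Tomm20), or 25.0%, while 11.4% of all genes tested did so. They all lay above the controls in 1, Timm22, or 4.17%, against 9.62% of all genes. These shares describe the list and were not tested over it. Without control replicate 3 the number lower throughout was 11, where 20.6% of all genes tested were lower throughout. Without mitochondria replicate 1 or 3 the number higher throughout was 2, where all genes gave 12.4% and 15.5%. Under TMM scaling, Tomm40 overlapped between the groups, which left 5 lower throughout (10.1% of all genes), and 17 genes were negative (48.7% of all genes). With TPM, Timm13 and Timmdc1 were lower throughout too, which made 8 (12.2% of all genes).

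**Figure D1:**
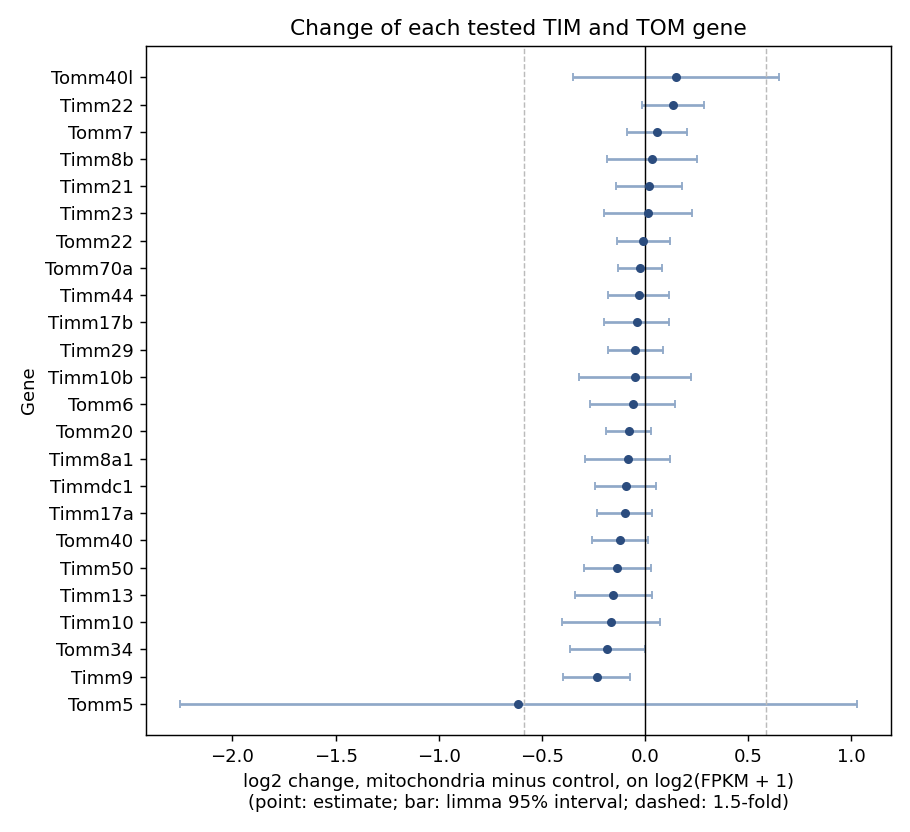
Log2 change (mitochondria minus control, horizontal axis) of the 24 tested TIM and TOM genes, on log2(FPKM + 1), with limma's 95% intervals as bars and dashed lines at a 1.5-fold change of FPKM + 1. The estimates crowd around 0, 18 of 24 are negative, and the interval of Tomm5 is far wider than the others.

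At the outer membrane, the 3 expressed receptors were steady. TOMM22 and TOMM20 bind presequence proteins, and TOMM70 receives carrier precursors together with cytosolic chaperones. Tomm22 (ENSMUSG00000022427, chromosome 15, 79670861 to 79673400) was the most abundant TOM transcript. It stood at 83.2, 76.6 and 76.7 FPKM in the controls and at 76.4, 80.3 and 78.0 FPKM with mitochondria. The groups overlapped, with means of 78.8 ± 3.75 and 78.2 ± 1.95 FPKM (SD, n = 3) and differed by −0.01 in log2 (SE 0.05, adjusted p = 0.961 by limma). Tomm20 (ENSMUSG00000093904) was at 24.7, 23.8 and 24.2 FPKM in the controls and 22.7, 22.7 and 23.1 FPKM with mitochondria. Every mitochondria library was below every control library, but the gap of −0.08 in log2 was small (SE 0.05, adjusted p = 0.497 by limma). Tomm70a had the tightest values of all members, between 18.6 and 19.3 FPKM over the 6 libraries. Only 0.431% of the 3947 tested genes within 2-fold of its level had as small a spread within groups. Tomm70a was singled out as the tightest member after the values were seen. Tomm20l, a paralogue of Tomm20, was listed at 0 throughout.

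The channel gene Tomm40 (ENSMUSG00000002984, chromosome 7, 19701313 to 19715438) was at 16.1, 15.1 and 15.6 FPKM in the controls and at 13.8, 14.04 and 15.04 FPKM with mitochondria. The groups did not overlap, although the highest mitochondria library came close to the lowest control, and the log2 change of −0.12 (SE 0.06) did not pass (limma adjusted p = 0.412). Its paralogue Tomm40l was at 5.34, 8.83 and 10.7 FPKM in the controls and at 8.59, 8.71 and 9.65 FPKM with mitochondria. Here control replicate 1 was low and the controls surrounded the mitochondria libraries. Without control replicate 1, the log2 change of Tomm40l went from 0.15 to −0.11. Tomm40 was present at 3.02, 1.71 and 1.45 times the level of Tomm40l in the controls and at 1.60, 1.61 and 1.56 times with mitochondria. In the ratio, too, control replicate 1 stood apart (exact two-sided permutation p = 0.7, n = 3 in each group, adjusted p = 0.7 over 4 paralogue or partner pairs). With 3 against 3 libraries this test cannot go below 0.1.

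The small TOM subunits, which help to assemble and stabilise the complex, divided into steady and unsteady genes. Tomm7 was at 49.6, 45.9 and 45.5 FPKM in the controls and at 50.5, 50.5 and 45.9 FPKM with mitochondria, with overlapping groups (log2 change 0.06, SE 0.06, limma adjusted p = 0.737). Tomm6 lay between 29.2 and 36.5 FPKM in all 6 libraries. Tomm5 (ENSMUSG00000078713, chromosome 4, 45105208 to 45108114) was at 35.9, 7.19 and 25.4 FPKM in the controls and at 8.32, 28.3 and 7.15 FPKM with mitochondria. Its high and low libraries occurred in both groups, so the means of 22.8 ± 14.5 and 14.6 ± 11.9 FPKM (SD, n = 3) overlapped widely. The highest library held 5.03 times the lowest, and the log2 change of −0.61 had an SE of 0.69 (limma adjusted p = 0.750), with a 95% interval from −2.25 to 1.03. Among the 3966 tested genes within 2-fold of its mean level, 99.9% had a smaller or equal spread within groups. Tomm5 was singled out after its values were seen. A pseudogene, Gm8069, shares 8.86% of the 31-base words of Tomm5 and averaged 0.909 FPKM.

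**Figure D2:**
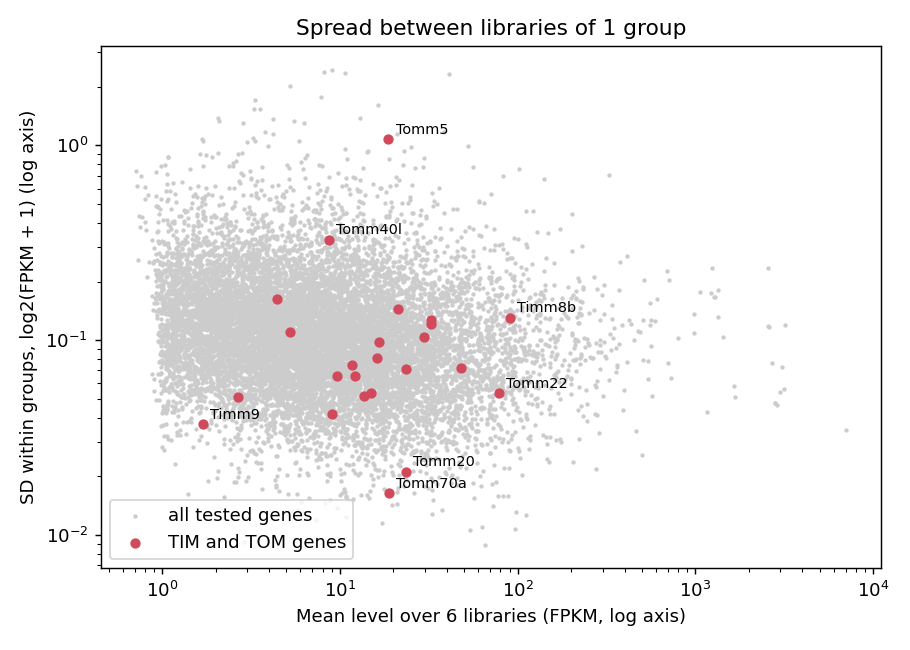
Spread between libraries of the same group (SD of log2(FPKM + 1), vertical log axis) against the mean level over 6 libraries (FPKM, horizontal log axis), with all tested genes in grey and the 24 tested TIM and TOM genes in red. Tomm5 sits near the upper edge of the grey cloud, Tomm40l above most genes of its level, and Tomm70a and Tomm20 near the lower edge.

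Tomm34 encodes a co-chaperone that is largely cytosolic and binds precursors before import. It was at 19.6, 17.4 and 16.3 FPKM in the controls and at 16.1, 15.5 and 14.9 FPKM with mitochondria. The groups were separated by a narrow margin, and control replicate 1 was the highest. Its log2 change was −0.18 (SE 0.08, unadjusted p = 0.0475, adjusted p = 0.352 by limma with n = 3 in each group).

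**Figure D3:**
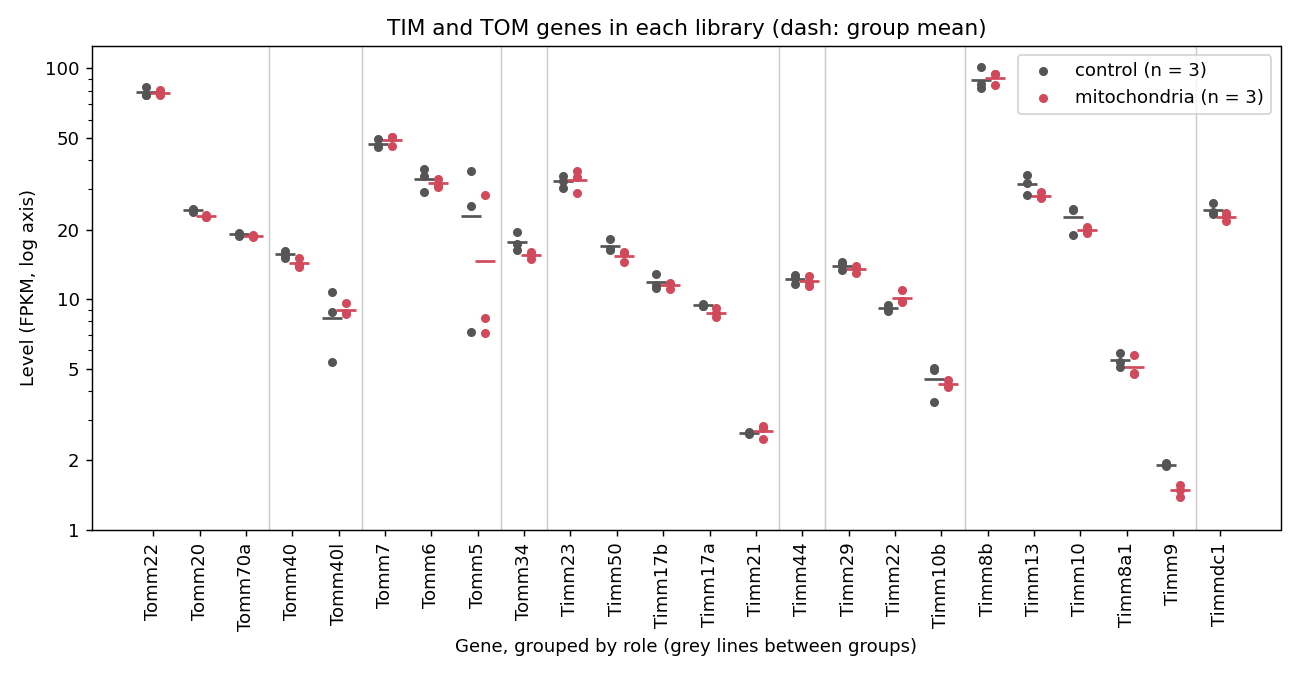
Level of the 24 tested TIM and TOM genes (FPKM, vertical log axis) in each control library (grey points) and each mitochondria library (red points), with dashes at the group means and genes grouped by role. Levels run from Timm9 near the bottom to Timm8b at the top, and the groups lie on one another for most genes.

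In the inner membrane, differences in the TIM23 genes were small, though Timm50 and Timm17a were lower in every mitochondria library. TIMM23 and TIMM17 build the translocase, TIMM50 receives the presequence from the outer membrane, and TIMM21 links TIM23 to TOM and the respiratory chain. Timm23 (ENSMUSG00000013701, chromosome 14, 32180162 to 32201898) was at 32.6, 34.2 and 30.3 FPKM in the controls and at 33.9, 35.8 and 28.8 FPKM with mitochondria. The mitochondria libraries held both its highest and its lowest value (log2 change 0.02, SE 0.09, limma adjusted p = 0.962). Timm50 was at 18.3, 16.5 and 16.2 FPKM in the controls and at 14.5, 15.9 and 15.8 FPKM with mitochondria, without overlap (log2 change −0.13, SE 0.07, limma adjusted p = 0.443). Timm21 was the least abundant of the 5, at 2.48 to 2.81 FPKM over the 6 libraries.

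The interchangeable subunits TIMM17A and TIMM17B come from genes on chromosomes 1 and X. Timm17a was at 9.42 ± 0.0859 FPKM in the controls and 8.73 ± 0.394 FPKM with mitochondria (SD, n = 3), without overlap, and Timm17b at 11.8 ± 0.888 and 11.5 ± 0.341 FPKM, with overlap. Neither passed (limma adjusted p = 0.489 and 0.839). Timm17a stood at 0.731 to 0.842 of the level of Timm17b in the controls and at 0.716 to 0.788 with mitochondria. These ratios overlapped (exact two-sided permutation p = 0.5, n = 3 in each group, adjusted p = 0.667 over the 4 pairs). Timm44, which anchors the import motor on the matrix side, was at 12.8, 12.3 and 11.7 FPKM in the controls and at 12.7, 11.4 and 11.8 FPKM with mitochondria (log2 change −0.03, SE 0.06, limma adjusted p = 0.872).

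The carrier translocase TIM22 held the 1 import gene whose mitochondria libraries were all higher. Timm22 (ENSMUSG00000020843, chromosome 11, 76406952 to 76416292), the channel-forming subunit, was at 8.89, 9.45 and 9.09 FPKM in the controls and at 9.86, 9.70 and 10.9 FPKM with mitochondria. The lowest mitochondria library was just above the highest control, and the log2 change of 0.14 (SE 0.06) did not pass (limma adjusted p = 0.409). Timm29, a subunit that connects TIM22 with TOM, was at 14.5, 13.4 and 14.0 FPKM in the controls and at 13.9, 13.6 and 12.9 FPKM with mitochondria, with overlap. Timm10b lay between 3.57 and 5.01 FPKM. Summed over the 3 genes, TIM22 was at 27.6 ± 1.05 and 27.9 ± 0.161 FPKM (SD, n = 3).

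The small TIM chaperones covered the widest range of levels. TIMM9 with TIMM10, and TIMM8A or TIMM8B with TIMM13, form ring-shaped complexes that shield hydrophobic precursors between the membranes. Timm8b (ENSMUSG00000039016, chromosome 9, 50603910 to 50605320) was the most abundant import transcript, at 101, 81.9 and 85.3 FPKM in the controls and at 94.7, 94.5 and 84.4 FPKM with mitochondria. The controls spanned the mitochondria libraries (log2 change 0.03, SE 0.09, limma adjusted p = 0.916). Its paralogue Timm8a1 was far lower, at 5.43 ± 0.392 and 5.07 ± 0.555 FPKM, which is 0.0581 to 0.0650 of the level of Timm8b in the controls and 0.0501 to 0.0603 with mitochondria. These ratios overlapped (exact two-sided permutation p = 0.3, n = 3 in each group, adjusted p = 0.6 over the 4 pairs). Timm8a2, a further copy, was listed at 0 in every library.

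Timm9 had the smallest p of the family. Timm9 (ENSMUSG00000021079, chromosome 12, 71123173 to 71136684) was at 1.91, 1.90 and 1.95 FPKM in the controls and at 1.49, 1.57 and 1.39 FPKM with mitochondria. Every mitochondria library was below every control by more than the spread within either group. The log2 change was −0.23 (SE 0.07, unadjusted p = 0.0114, adjusted p = 0.197 by limma with n = 3 in each group), and it ranked 727 of the 12639 genes by p. On the log2(FPKM + 1) scale the change of so low a gene is understated: the means were 1.92 ± 0.0292 and 1.48 ± 0.0866 FPKM, a ratio of 0.773. Its partner Timm10 was at 24.5, 24.4 and 19.01 FPKM in the controls and at 20.4, 19.4 and 19.98 FPKM with mitochondria, and control replicate 3 was the lowest library of all (log2 change −0.17, SE 0.10, limma adjusted p = 0.521). Without that library the log2 change of Timm10 was −0.28 (limma adjusted p = 0.0845), and over all alternatives its adjusted p ran from 0.0845 to 0.761. Timm9 stood at 0.0777 to 0.103 of the level of Timm10 in the controls and at 0.0697 to 0.0809 with mitochondria (exact two-sided permutation p = 0.3, n = 3 in each group, adjusted p = 0.6 over the 4 pairs). Timm13 lay between 27.5 and 34.4 FPKM, with overlap (limma adjusted p = 0.443).

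Timmdc1 carries the name of the family by sequence likeness, but its product is an assembly factor of respiratory complex I. It was at 26.1, 23.8 and 23.3 FPKM in the controls and at 21.8, 23.6 and 23.01 FPKM with mitochondria. The groups overlapped (log2 change −0.09, SE 0.06, limma adjusted p = 0.566).

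Ordered by the mean over the 6 libraries, Timm8b (90.3 FPKM) and Tomm22 (78.5 FPKM) led and their ranges overlapped. Tomm7 (48.0 FPKM) followed without overlap with either neighbour. Timm23, Tomm6 and Timm13, at 32.6, 32.5 and 29.8 FPKM, overlapped each other, and a run of overlapping genes from Timmdc1 (23.6 FPKM) to Timm29 (13.7 FPKM) came next. At the lower end Timm10b (4.40 FPKM), Timm21 (2.66 FPKM) and Timm9 (1.70 FPKM) were each separate from the gene below or above by their ranges. The tested import genes had a median level of 16.4 FPKM, against 7.29 FPKM for all genes tested. Their median coefficient of variation over the 6 libraries was 7.53%, against 9.45% for all genes. Summed over all 26 genes, the family was at 555 ± 36.5 FPKM in the controls and 533 ± 21.2 FPKM with mitochondria (SD, n = 3). Control replicate 1 was the highest library of this sum, at 597 FPKM, and the other 5 lay between 514 and 556 FPKM.

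Several members share sequence with other genes, so the authors' quantification could have divided their reads. Of all 31-base words in the transcripts of Tomm6, 77.3% occur in another gene, mostly in Gm21981, a protein-coding model on the same strand that overlaps 76.0% of its exonic bases and averaged 18.3 FPKM. For Timm23 the share was 63.5%, mostly with Gm10273 (8.53 FPKM), for Timm8a1 it was 41.8%, all with Gm9797 (5.11 FPKM), and for Tomm40l it was 59.6%, with Nr1i3 on the opposite strand (0.0672 FPKM). In the other 22 genes the share was 20.2% or less. The libraries were strand-specific per the labels' protocols, but the sources used here do not give whether quantification used strand.

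With near-identical copies added to the member (for Tomm6 the overlapping model Gm21981), an alternative chosen after seeing the data, no call changed. Timm23 with Gm10273, Gm10233 and Gm10171 was at 58.7 ± 4.42 FPKM in the controls and 56.9 ± 5.10 FPKM with mitochondria (SD, n = 3), and its log2 change went from 0.02 to −0.05. Timm8a1 with Gm9797 was at 10.3 ± 0.422 and 10.5 ± 0.781 FPKM, and its log2 change went from −0.08 to 0.02. Tomm6 with Gm21981 was at 64.3, 51.6 and 45.003 FPKM in the controls and at 46.5, 48.2 and 48.96 FPKM with mitochondria. Its log2 change went from −0.06 to −0.15 (limma adjusted p = 0.659). In that sum, control replicate 1 stood above the other 5 libraries. Tomm20 with Gm14494 was at 34.0 ± 0.672 and 32.3 ± 0.393 FPKM, and its log2 change went from −0.08 to −0.07.

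In mammals, genes for mitochondrial proteins often carry near their starts sites for a few general activators, among them the ETS-family factor GABP, NRF1 and YY1. RefSeq promoter windows on GRCm38.p6, from 250 bases before to 50 bases after the start, were matched for 23 of the 26 genes, 21 of them tested. The ETS motif CCGGAAGT, on either strand, was in 6 of these 21 windows (28.6%): those of Timm10, Timm10b, Timm23, Timm29, Timmdc1 and Tomm70a. It was in 9.32% of the windows of 8662 tested protein-coding genes. The YY1 motif, searched like the NRF1 and CRE motifs as a consensus on both strands, was in 2 of 21 (9.52%), Timm44 and Timm50, against 2.86%. The NRF1 motif was in 2 of 21 (9.52%), Timm8b and Tomm20, against 11.4%, and the CRE motif TGACGTCA was in 0 of 21, against 3.37%. No member's window held matches to more than 1 of the 4 motifs, so no matches overlapped. With so few windows these shares are descriptions, without a test, and a match does not show that a factor binds.

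The 6 tested genes with an ETS match had log2 changes from −0.17 to 0.02 (median −0.05), and the 15 without one from −0.61 to 0.14 (median −0.08). The ranges overlapped. The 5 windows are shown because they hold the matches of the most abundant member, of a receptor, of a TIM23 subunit and of the tested member with a pair of ETS matches, and because Tomm5 had the widest spread. Capitals mark the motif matches, and each window is printed 5′ to 3′ on the strand of its gene.
Timm8b, chr9:50603651-50603950, plus strand, NRF1 match: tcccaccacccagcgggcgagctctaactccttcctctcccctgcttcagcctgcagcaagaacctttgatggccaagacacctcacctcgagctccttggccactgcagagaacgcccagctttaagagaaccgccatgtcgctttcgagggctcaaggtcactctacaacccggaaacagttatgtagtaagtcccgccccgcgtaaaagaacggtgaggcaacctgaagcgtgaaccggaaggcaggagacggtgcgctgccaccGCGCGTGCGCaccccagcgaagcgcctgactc
Tomm20, chr8:126945872-126946171, minus strand, NRF1 match: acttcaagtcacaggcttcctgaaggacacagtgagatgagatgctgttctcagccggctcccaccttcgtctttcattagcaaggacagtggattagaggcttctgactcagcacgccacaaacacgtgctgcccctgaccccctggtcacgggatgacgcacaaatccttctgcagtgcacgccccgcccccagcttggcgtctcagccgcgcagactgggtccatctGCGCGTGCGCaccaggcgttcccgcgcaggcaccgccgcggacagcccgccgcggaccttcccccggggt
Timm50, chr7:28311997-28312296, minus strand, YY1 match: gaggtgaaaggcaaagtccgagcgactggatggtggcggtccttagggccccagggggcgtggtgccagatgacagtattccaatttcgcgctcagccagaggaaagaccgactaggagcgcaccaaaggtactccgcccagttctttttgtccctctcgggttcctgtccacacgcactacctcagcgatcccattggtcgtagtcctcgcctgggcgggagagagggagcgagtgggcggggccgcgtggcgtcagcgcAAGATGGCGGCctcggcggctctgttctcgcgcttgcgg
Timmdc1, chr16:38522614-38522913, minus strand, ETS matches: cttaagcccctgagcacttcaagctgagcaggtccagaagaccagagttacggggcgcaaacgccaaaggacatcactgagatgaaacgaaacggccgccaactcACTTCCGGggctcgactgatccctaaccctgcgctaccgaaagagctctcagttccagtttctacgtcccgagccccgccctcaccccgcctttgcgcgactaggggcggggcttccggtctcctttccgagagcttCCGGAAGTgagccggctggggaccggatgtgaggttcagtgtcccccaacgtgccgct
Tomm5, chr4:45108064-45108363, minus strand, no match: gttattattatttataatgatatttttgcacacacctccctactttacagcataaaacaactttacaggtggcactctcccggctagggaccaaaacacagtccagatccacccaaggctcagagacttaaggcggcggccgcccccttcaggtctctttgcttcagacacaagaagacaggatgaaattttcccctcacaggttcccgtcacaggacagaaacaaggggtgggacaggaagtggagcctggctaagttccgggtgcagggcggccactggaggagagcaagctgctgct

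In Timm50 the YY1 match began 11 bases after the start base, and in Timm44 it began 15 bases after. The 2 ETS matches of Timmdc1 began 145 and 8 bases before the start. The window of Tomm5 had the lowest ratio of observed to expected CpG of the 21, at 0.350, where the median was 0.826 for the tested import genes and 0.787 for all tested protein-coding genes.

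**Figure D4:**
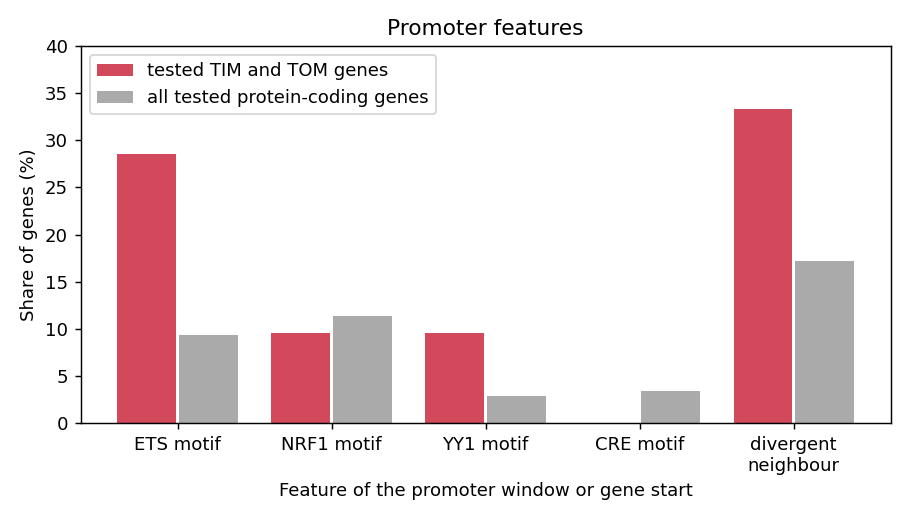
Share of genes (%, vertical axis) with each motif in the promoter window (21 tested TIM and TOM genes in red, 8662 tested protein-coding genes in grey) and with a divergent neighbour (24 and 10996 genes). The red bars are higher for the ETS and YY1 motifs and for divergent neighbours, lower for NRF1, and at 0 for CRE.

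A divergent neighbour, meaning a protein-coding gene that starts within 1000 bases and is read in the opposite direction, was found for 8 of the 24 tested import genes (33.3%) and for 17.2% of all tested protein-coding genes. Timm8b starts 98 bases from Sdhd, which encodes a subunit of respiratory complex II. Sdhd averaged 70.2 FPKM beside the 90.3 FPKM of Timm8b, and it differed by 0.09 in log2 (SE 0.07, adjusted p = 0.619 by limma). Timm23 starts 51 bases from Parg, Timm17b 88 bases from Pqbp1 and Timm9 164 bases from 2700049A03Rik. In this last pair the log2 change was −0.23 for Timm9 and 0.00 (SE 0.09, limma adjusted p = 0.999) for the neighbour. Tomm34 overlaps the start of Stk4, a kinase of the Hippo pathway, and the pair had log2 changes of −0.18 and −0.13 (SE 0.05, limma adjusted p = 0.329 for Stk4). None of the 8 neighbours passed the test. Timm9 also overlaps Tomm20l on the opposite strand, by 49 exonic bases, and Tomm20l was nevertheless listed at 0.

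Among the genes of proteins that work with the translocases, none passed the test either. Of 37 partner genes 36 were tested, and Immp2l, a subunit of the inner membrane peptidase, was too low, at 0.580 to 1.05 FPKM. None of the 36 passed (limma, against 1.12% of all genes), and 3 had an unadjusted p under 0.05 (8.33%, against 13.9%). For 35 of the 36 the 95% interval lay within a 1.5-fold change of FPKM + 1, and the median log2 change was −0.01. The log2 change was negative in 25 (69.4%, against 52.0% of all genes tested). The mitochondria libraries all lay below the controls in 7 (19.4%, against 11.4%). They all lay above in 5 (13.9%, against 9.62%). These shares were not tested. Dnaja1, a cytosolic Hsp40 that helps deliver precursors, was at 35.8, 33.4 and 33.8 FPKM in the controls and at 29.2, 29.7 and 28.9 FPKM with mitochondria. The groups were well apart, and the log2 change was −0.22 (SE 0.05, limma adjusted p = 0.101). Pitrm1, which degrades cleaved presequences, was at 33.6, 34.4 and 32.2 FPKM in the controls and at 38.96, 37.6 and 36.005 FPKM with mitochondria. All mitochondria libraries were higher (log2 change 0.16, SE 0.05, limma adjusted p = 0.246). Pmpca, a subunit of the presequence peptidase, was at 32.8 ± 0.631 and 35.4 ± 1.22 FPKM (SD, n = 3), also without overlap (limma adjusted p = 0.394).

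Xpnpep3, a mitochondrial aminopeptidase that trims imported proteins, was at 5.83, 6.57 and 6.53 FPKM in the controls and at 2.36, 1.77 and 5.78 FPKM with mitochondria. Mitochondria replicate 3 lay next to the controls, while the other 2 were far lower. Over all libraries the log2 change was −0.88 (SE 0.31, limma adjusted p = 0.280). Without mitochondria replicate 3 it was −1.26 (SE 0.11, limma adjusted p = 0.0256), which would count as a call.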

How the data were processed

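The deposited values were read as FPKM. Per the file headers each file holds 1 library and no unit is named. Per the submitters' processing notes, the authors used FastQC 0.11.5, STAR 2.5.3a and StringTie 1.3.1c with GRCm38 (mm10); roles, settings and annotation release are not given in the sources used here. GENCODE M21 matched 55154 of 55335 identifiers. A gene entered the test if 3 of the 6 libraries reached 1 FPKM. The test was limma 3.58.1 (R 4.3.3), two-sided, applied to log2(FPKM + 1); its only covariate was group, and its empirical Bayes step was robust with a trend. Adjustment (Benjamini-Hochberg, threshold 0.05) covered every tested gene, and the code was checked on simulated data. Members and lists were chosen with earlier results of these data known. All members are accounted for; every library is given for the highest member of each role, members with an unadjusted p under 0.05, and some chosen after their values were seen (Tomm20, Tomm40l, Tomm5, Timm50, Timm22, Timm10). Partners named are the 4 with the smallest p. Alternatives were a pseudocount of 0.1, filtering by a mean of 5 FPKM or not at all, TMM factors, quantile normalization, TPM, plain empirical Bayes, a replicate block, omission of genes of mitochondrial DNA and of each library.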

Additional observations from a re-analysis of the deposited data

How the results depend on the processing

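No import gene was called by limma under any of the 15 alternatives or with near-identical copies added. When a library was left out, 17 to 19 of the tested import genes had a negative log2 change, where 50.7% to 53.1% of all genes tested did. Over the alternatives the adjusted p was 0.126 to 0.455 for Timm9 and 0.197 to 0.606 for Tomm34. The smallest adjusted p of any member was 0.0845, for Timm10 without control replicate 3. Without control replicate 1 the log2 change shrank by over 1.5 times to −0.088 for Timm13, −0.084 for Timm50, −0.11 for Tomm34 and −0.11 for Timm10. Leaving out that library also shrank it by over 1.5 times for Timmdc1 (to −0.046), Timm8a1 (−0.036), Timm29 (−0.022), Timm44 (−0.0036), Tomm6 (−0.039) and Tomm5 (−0.17). Timm10 gave −0.11 without control replicate 2 too. Leaving out other libraries also shrank some changes by over 1.5 times. Without mitochondria replicate 3 the log2 change was 0.088 for Timm22 and −0.020 for Timm29. Without mitochondria replicate 2 it was −0.0019 for Timm44 and −0.045 for Timm8a1. For Tomm7 it was 0.035 without control replicate 3. The sign changed in 15 of the 268 member values that a setting could move; the block, plain empirical Bayes and both filters leave a log2 change as it is. With 1 library left out the log2 change ran from −0.18 to 0.019 for Timm10b, −0.080 to 0.014 for Timm17b, −0.0052 to 0.060 for Timm21, −0.047 to 0.11 for Timm23, −0.027 to 0.12 for Timm8b, −0.030 to 0.029 for Tomm22, −0.11 to 0.34 for Tomm40l and −0.15 to 0.0071 for Tomm6. It was 0.0020 for Tomm22 under TMM, and with copies added −0.046 for Timm23 and 0.024 for Timm8a1. Tomm5 ran from −1.26 to −0.17. Members whose groups did not overlap numbered 6 to 11 lower and 1 to 2 higher with a library left out, where fewer samples make this easier: all genes then gave 14.7% to 20.6% lower and 12.4% to 16.2% higher. Partners called numbered 0 to 1. All genes called numbered 141, and 15 to 84 with a library left out, 13 with no filter (more genes tested) and 56 with the replicate block. Whether the labels' replicate numbers pair the samples cannot be settled with 6 libraries. Deviations of same-numbered libraries correlated at 0.05 to 0.30 across genes, and those of differently numbered libraries at −0.20 to 0.12. Of the 6 libraries, 3 correlated best with their own number. The block changed no call among the import genes or their partners. The FPKM carry no counts per gene, so no counting error is given for low members such as Timm9.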
